A study of Brassica rapa with 6 samples.

Results

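Phylloplanins are small secreted proteins that were first described on the leaf surface of tobacco, where glandular hairs release them and where they inhibit the germination of spores of the blue mold pathogen. In other plants the name is given by likeness of sequence. The values here are RNA levels and do not show where a protein is. Of 49200 loci in the table, 45666 carried a single gene name, and 2 of these were described as phylloplanin-like. They were BraA01g035500.3C and BraA01g035530.3C. BraA01g035500.3C was chosen by its measured values in these same libraries, as one of the 10 described loci with the largest difference between petiole and leaf toward leaf, so its difference is a description and was not tested. BraA01g035530.3C was taken in by its description, which it shares with the chosen locus, and was tested within the fit over all loci. Among 9314 described loci with a mean of at least 10 FPKM in the higher tissue, it ranked 5 by log2 fold change toward leaf. In that order BraA01g035500.3C ranked 6. Over all 31473 loci tested, with no such limit, BraA01g035530.3C ranked 61 and BraA01g035500.3C ranked 64. The copies may also share reads, so the p-value of BraA01g035530.3C is not independent of the choice.

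The RNA was from baby Chinese cabbage (*Brassica rapa*), sequenced after removal of ribosomal RNA in 3 libraries of petiole, which is the stalk of the leaf, and 3 libraries of leaf. Both tissues were of the genotype inbred line, had no treatment and were taken at maturity. Separate plants are not stated for the libraries of a tissue. The p-values therefore reflect the spread among these libraries alone, and that spread may be technical.

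Each petiole library held 120805715 to 132861243 units of estimated counts, and each leaf library 111518411 to 121161682. Low counts piled up at multiples of 3.69 to 3.73 units, so 1 sequenced fragment is taken here as 3.715 units. The most abundant locus took 3.32% to 3.49% of the units in petiole and 9.05% to 12.5% in leaf. Genes that define green leaf blade (chlorophyll a-b binding proteins and Rubisco small chains) summed to between 367.9 and 402.0 CPM in petiole and between 4275 and 4660 CPM in leaf. Genes of xylem and its secondary wall summed to between 375.4 and 399.8 CPM in petiole and between 222.5 and 226.1 CPM in leaf. Each sum covers only the 29 loci with a single gene name in its list, so it is not the total of these genes. CPM are counts scaled to library size with TMM factors and not to length. FPKM is the deposited level, scaled by the authors to transcript length and library depth, and serves here for comparing levels between loci. Between tissues it stood higher in petiole than CPM did. The median log2 difference was 0.60 over 26029 loci on log2(FPKM + 1), against 0.01 over 31473 loci on counts. TMM factors draw the median on counts toward 0, so these medians cannot tell which scale is right. Fold changes are given on counts.

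BraA01g035500.3C stood on the plus strand of chromosome A01, bases 24298451 to 24299433 in the coordinates of the table, whose genome build is not given in the sources used here. BraA01g035530.3C followed on the same strand at 24317979 to 24319073, after a gap of 18545 bases. The table gives no exons or UTRs for either. Both carried the same 4 Gene Ontology terms, among them extracellular region and integral component of membrane.

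Both phylloplanin-like loci were abundant in leaf and close to the limit of detection in petiole. BraA01g035500.3C had 0.561, 0.600 and 0.902 FPKM in the petiole libraries, against 974.4, 952.9 and 854.6 FPKM in the leaf libraries. BraA01g035530.3C was listed at 0 in 1 petiole library and had 0.203 and 0.518 FPKM in the other two, against 382.6, 317.6 and 333.2 FPKM in the leaf libraries. For each locus the lowest leaf library lay far above the highest petiole library. For BraA01g035500.3C this follows from its choice by these values. The share of all loci whose groups did not overlap was not counted. In bulk tissue, fewer cells of a type and less RNA per cell cannot be told apart.

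**Figure D1:**
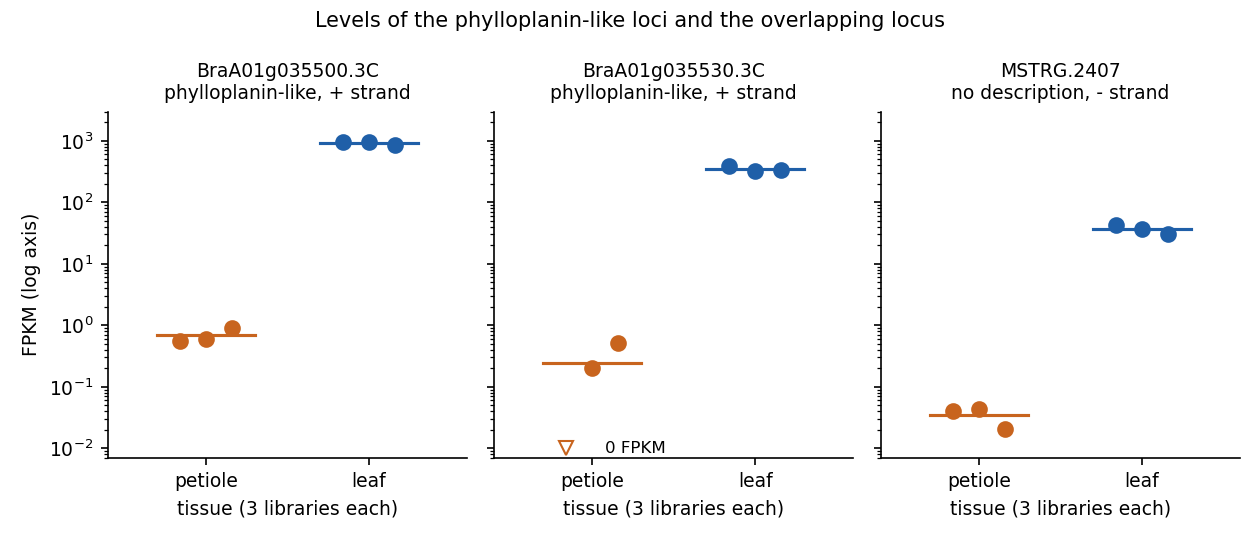
FPKM of BraA01g035500.3C, BraA01g035530.3C and the overlapping locus MSTRG.2407 in each of 3 petiole (orange) and 3 leaf (blue) libraries on a log axis, with a line at the mean. The open triangle marks a library listed at 0. In all 3 panels the leaf libraries lie above every petiole library, with BraA01g035500.3C the highest in leaf at 854.6 to 974.4 FPKM.

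On CPM, BraA01g035530.3C averaged 0.149 ± 0.162 CPM in petiole and 345.1 ± 36.9 CPM in leaf (SD, n = 3 each). Its log2 fold change, petiole minus leaf, was -11.22 ± 0.77 (SE), with an edgeR quasi-likelihood adjusted p of 0.000306 over all 31473 loci tested. It was lower in all 3 petiole libraries than in any leaf library, and the share of all loci with such a separation was not counted. As background, 62.6% of all loci tested were called in either direction, 31.5% as higher in petiole and 31.1% as higher in leaf. A call toward leaf alone is therefore common. Over the alternatives the adjusted p ranged from 2.98e-14 to 0.0154. Without petiole replicate 3 the log2 fold change was -12.43 and without petiole replicate 1 it was -10.60, and with limma on log2(FPKM + 1) it was -8.14.

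BraA01g035500.3C averaged 0.365 ± 0.0993 CPM in petiole and 808.0 ± 55.4 CPM in leaf (SD, n = 3 each), a log2 fold change of -11.12 ± 0.22 (SE). Among the 9314 described loci with a mean of at least 10 FPKM in the higher tissue, it ranked 6 and BraA01g035530.3C ranked 5 by log2 fold change toward leaf. Those next to them in this order were the defensin-like protein 205 locus BraA01g042550.3C at rank 4, which was at 0 in every petiole library, so that its fitted value depends on the prior count, and the beta carbonic anhydrase 2 locus BraA02g005650.3C at rank 7, with -11.10. At the edge of the first 10 of this order, rank 10 held -10.62 and rank 11 held -10.58. The log2 fold changes of the phylloplanin-like loci differed by less than the standard error of either.

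The petiole values rest on small numbers of fragments. BraA01g035500.3C had about 12, 12 and 17 fragments in the petiole libraries. Exact 95% Poisson intervals were 6.20 to 21.0 fragments for a count of 12 and 9.90 to 27.2 for a count of 17, so the petiole libraries overlapped in counting error. BraA01g035530.3C had about 0, 5 and 12 fragments, and in the library at 0 the interval reached up to 3.69 fragments, or 0.0908 CPM. These intervals cover counting error only.

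The leaf values are far deeper, with 20741 to 23690 fragments per library for BraA01g035500.3C and 9073 to 10591 for BraA01g035530.3C. Together the pair took 5.70e-05% ± 2.83e-05 of all count units in petiole and 0.104% ± 0.00571 in leaf (SD, n = 3 each).

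BraA01g035500.3C was the more abundant copy in every library. Per unit of transcript length, the FPKM ratio of BraA01g035500.3C to BraA01g035530.3C was 2.95 and 1.74 in the petiole libraries where both had fragments, against 2.55, 3.00 and 2.56 in the leaf libraries. Within leaf the ranges of the copies did not overlap, whereas in petiole the ranges came close, at 0.561 to 0.902 FPKM for BraA01g035500.3C and 0 to 0.518 FPKM for BraA01g035530.3C. Of the fragments of the pair, BraA01g035500.3C gave 12 of 12, 12 of 17 and 17 of 29 in the petiole libraries, or 100%, 70.6% and 58.6%. In the leaf libraries it gave 68.9%, 72.3% and 69.1%. The petiole shares lay on both sides of the leaf shares, on few fragments, and the difference between tissues was not tested. These shares are not scaled to length. Reads of near-identical stretches could be split between the copies by the counting, and how such reads were handled is not given in the sources used here.

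In leaf the phylloplanin-like loci stood near the top of the table. By mean leaf FPKM, 30 loci were above BraA01g035500.3C and 63 above BraA01g035530.3C, and 13 and 34 of those had a single gene name and a description. In single leaf libraries BraA01g035500.3C ranked 30, 32 and 31 of 49200, and BraA01g035530.3C ranked 62, 70 and 67. In petiole 26381 loci lay above BraA01g035500.3C and 29594 above BraA01g035530.3C by mean FPKM. Among the 29 loci with a single gene name matched as chlorophyll a-b binding proteins or Rubisco small chains, the highest in leaf was BraA04g024630.3C, which encodes an antenna protein of the photosystems, with a mean of 618.6 ± 51.4 FPKM in leaf (SD, n = 3).

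Another locus lay over the pair. MSTRG.2407, an assembled locus with 2 transcripts and no description of its own, stood on the minus strand at 24299238 to 24319383. It shared 196 bases with the end of BraA01g035500.3C, which is 19.9% of that span, covered all 1095 bases of BraA01g035530.3C and ran 310 bases beyond it. It had 0.0402, 0.0440 and 0.0205 FPKM in the petiole libraries, against 43.0, 36.9 and 30.3 FPKM in the leaf libraries. In leaf its FPKM came to between 3.55% and 4.41% of that of BraA01g035500.3C. The petiole values stand for 2 fragments or fewer per library. Over leaf libraries a unit of FPKM in MSTRG.2407 was worth 1.77 times as many count units as in BraA01g035500.3C, although its span of 20146 bases was far longer than the 983 bases of that locus. Its log2 fold change was -10.61 ± 0.22 (SE; edgeR adjusted p = 2.64e-10). All 3 petiole libraries lay below every leaf library, and the share of all loci with such a separation was not counted. Of all loci tested, 31.1% were called as higher in leaf. The libraries kept strand per the labels' protocols, but no source says that the counting used it. Reads of MSTRG.2407 and of the phylloplanin-like loci therefore cannot be told apart where they overlap. As MSTRG.2407 was taken in by this overlap, its p-value is not independent of the choice of BraA01g035500.3C.

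The loci around the pair were at other levels. Within 100 kb on either side and between the copies, the table held 39 loci besides MSTRG.2407, of which 11 had no counts in any library. The nearest locus before BraA01g035500.3C, BraA01g035490.3C, was listed at 0 in all 6 libraries, and so were BraA01g035510.3C and BraA01g035520.3C, which lie between the copies. Of the 25 neighbours tested, 7 were higher in petiole, 6 were higher in leaf and 12 did not pass. Over all loci tested, 31.5% were called as higher in petiole and 31.1% as higher in leaf, so such calls are common. The median log2 fold change of the neighbours was 0.39 against 0.01 over all loci. The highest leaf mean among the neighbours was 31.6 FPKM, at BraA01g035390.3C, a stress-response A/B barrel protein. It was higher in petiole, at 113.4 ± 13.8 FPKM against 31.6 ± 2.38 FPKM in leaf (log2 fold change 1.10, edgeR adjusted p = 3.12e-06). The closest described neighbour after the pair, the bHLH147-like transcription factor locus BraA01g035540.3C, had 15.2 ± 0.948 FPKM in petiole and 8.66 ± 1.39 FPKM in leaf and did not pass (log2 fold change 0.07, edgeR adjusted p = 0.652).

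**Figure D2:**
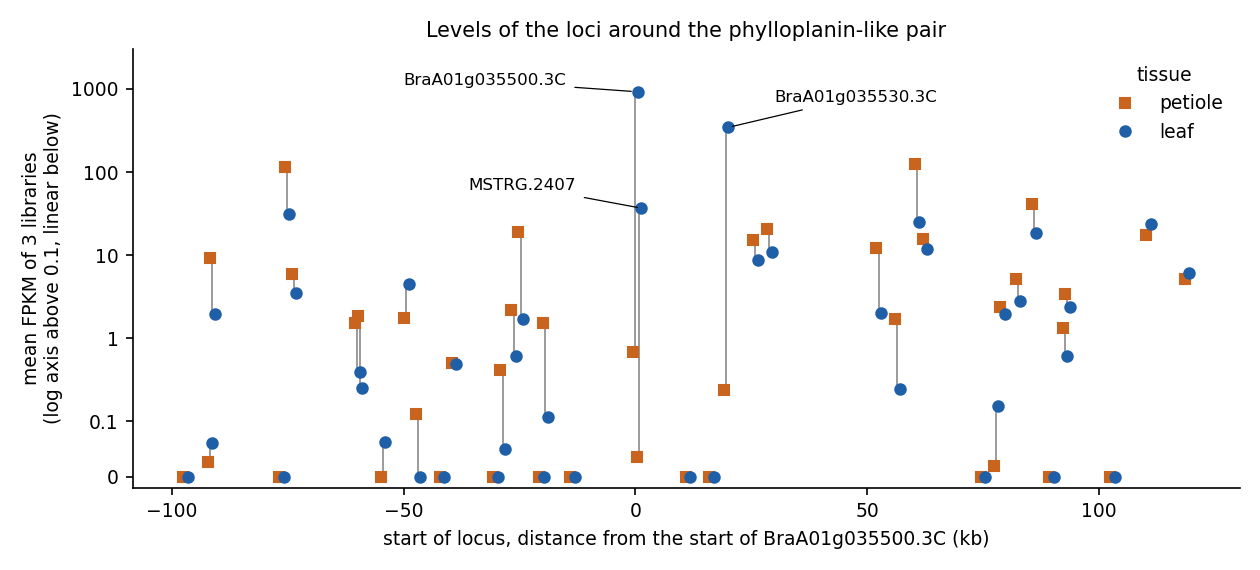
Mean FPKM over 3 libraries in petiole (orange squares) and leaf (blue circles) of each locus, placed by the distance of its start from that of BraA01g035500.3C in kb. The axis is logarithmic above 0.1 FPKM and linear below, and a grey line joins the tissues of a locus. Apart from the phylloplanin-like pair and MSTRG.2407, no locus shown had a leaf mean above 31.6 FPKM.

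Likeness of expression was measured as the Euclidean distance between log2(CPM + 0.1) profiles over the 6 libraries, for 43000 described loci with a single gene name. The nearest to BraA01g035500.3C was BraA02g005650.3C, the chloroplast beta carbonic anhydrase 2, which interconverts carbon dioxide and bicarbonate, at a distance of 1.68. Next came BraA05g040570.3C, the beta carbonic anhydrase 1 (2.41), and BraA03g037790.3C, an uncharacterised protein (2.58). BraA01g035530.3C was the fourth nearest (3.09). BraA03g042600.3C, described as like pathogenesis-related protein 1, a secreted defence protein (3.42), and the Rubisco small chain F1 locus BraA07g019510.3C (3.68) completed the 6. BraA02g005650.3C had 0.150 to 0.289 CPM in petiole and 481.9 to 533.5 CPM in leaf. BraA03g037790.3C had 0.824 to 0.898 CPM in petiole and 1561 to 1756 CPM in leaf, above BraA01g035500.3C in both tissues. BraA03g042600.3C had 0.113 to 0.322 CPM in petiole and 204.4 to 253.5 CPM in leaf. BraA03g037790.3C and BraA07g019510.3C each overlap another assembled locus. The 6 libraries are of 2 tissues, so a short distance means a like level in each tissue.

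**Figure D3:**
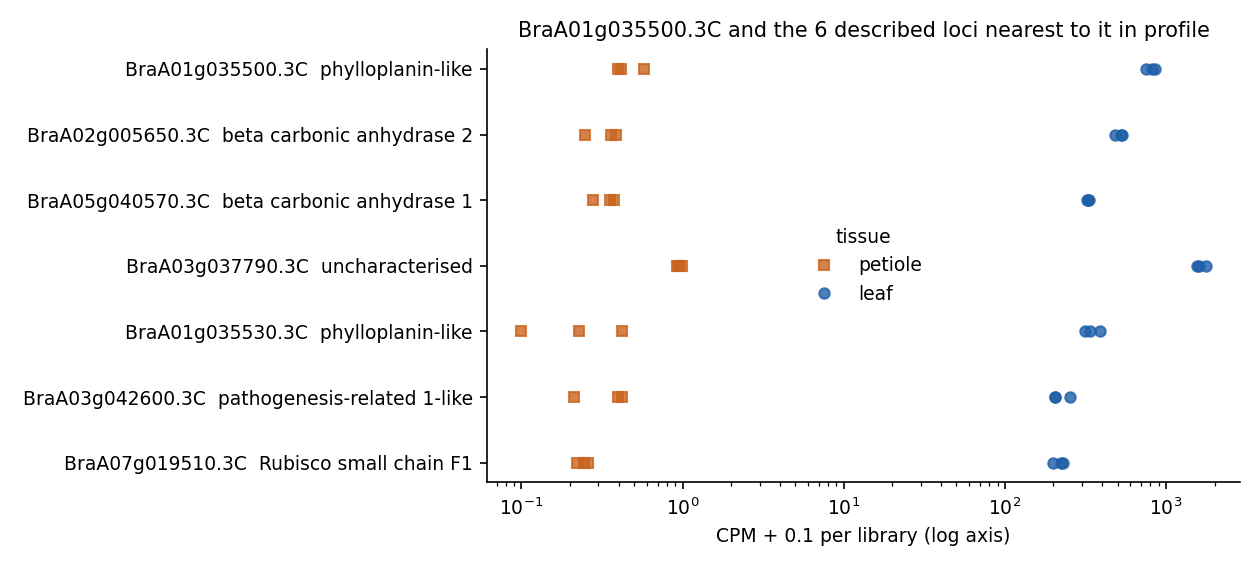
CPM + 0.1 in each library on a log axis for BraA01g035500.3C (top row) and the 6 nearest described loci, with petiole libraries as orange squares and leaf libraries as blue circles. The petiole values of all 7 loci lie below 1 CPM, and their leaf values lie between 199.2 and 1756 CPM.

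Few loci joined so high a leaf level to so low a petiole level. With limits chosen after the values were seen, 8 of 49200 loci had at least 100 FPKM in every leaf library and under 1 FPKM in every petiole library. BraA01g035500.3C and BraA01g035530.3C had the highest leaf means of the 8. This order depends on the limits. BraA03g037790.3C, with a leaf mean of 1998 FPKM, was left out by its petiole values of 1.67 to 1.80 FPKM. The others were BraA02g005650.3C, BraA03g042600.3C, BraA07g019510.3C, BraA05g040570.3C, the locus MSTRG.15153 without a description, and BraA03g031820.3C, described as like the pathogenesis-related protein PR-4. BraA03g031820.3C averaged 0.444 FPKM in petiole and 106.8 ± 3.68 FPKM in leaf (SD, n = 3).

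Other genes of the plant surface were compared through lists matched by description. Secreted antimicrobial proteins (defensins, thaumatins, thionins, gibberellin-regulated peptides and pathogenesis-related proteins) were higher in petiole for 18 and higher in leaf for 17 of 46 loci tested, with a median log2 fold change of 0.11. Only the defensin-like protein 4 locus MSTRG.21334 (2871 ± 121.7 FPKM in leaf) had a higher leaf mean than BraA01g035500.3C among the 133 loci of this list, and 2 loci had a higher leaf mean than BraA01g035530.3C. Of 29 lipid transfer proteins tested, small secreted carriers of lipids, 17 (58.6%) were higher in petiole and 4 (13.8%) in leaf (median 1.02). As a sum they stood at 1566 to 1647 CPM in petiole and 340.1 to 359.9 CPM in leaf. BraA04g027270.3C, a non-specific lipid transfer protein A, had 374.97 ± 16.04 FPKM in petiole and 10.97 ± 1.52 FPKM in leaf (log2 fold change 4.36, edgeR adjusted p = 7.28e-10). BraA09g042870.3C, a non-specific lipid transfer protein 5, fell to 1.56 ± 0.482 FPKM in petiole, against 34.6 ± 3.13 FPKM in leaf (log2 fold change -5.20, edgeR adjusted p = 3.48e-08).

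Wax and cutin enzymes, which build the cuticle of the epidermis, were higher in petiole for 20 and higher in leaf for 26 of 56 loci tested (median -0.20). Their sum was 1216 to 1260 CPM in petiole and 1178 to 1218 CPM in leaf, and these ranges overlapped. Among called loci of this list with a mean of at least 5 FPKM, BraA03g012220.3C, like ECERIFERUM 3, had the largest change. It had 0.0236 ± 0.0408 FPKM in petiole and 12.2 ± 0.304 FPKM in leaf (log2 fold change -9.79, edgeR adjusted p = 0.000584). BraA02g040500.3C, like ECERIFERUM 26, a protein of wax chain elongation, fell to 0.716 ± 0.153 FPKM in petiole, against 17.7 ± 0.787 FPKM in leaf (log2 fold change -5.36, edgeR adjusted p = 3.79e-10). The fatty acyl-CoA reductase 1 locus BraA10g018910.3C rose to 129.2 ± 4.07 FPKM in petiole, against 5.91 ± 0.661 FPKM in leaf (log2 fold change 3.71, edgeR adjusted p = 9.38e-11). Genes of stomatal development were higher in petiole for 6 (33.3%) and higher in leaf for 8 (44.4%) of 18 (median -0.86). BraA09g031060.3C, the EPIDERMAL PATTERNING FACTOR 2 that restrains stomatal formation, fell to 0.116 ± 0.108 FPKM in petiole, against 6.05 ± 0.827 FPKM in leaf (log2 fold change -6.30, edgeR adjusted p = 3.16e-05).

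Of 9 loci named for leaf hairs, 5 were tested and all 5 were higher in petiole (median 1.88). The highest of them in leaf, the TRANSPARENT TESTA GLABRA 1 locus BraA06g031870.3C, needed for hair formation in Arabidopsis, had 14.1 ± 0.954 FPKM in petiole and 6.79 ± 0.752 FPKM in leaf (log2 fold change on CPM 0.32, edgeR adjusted p = 0.0132), and it overlaps a locus on the other strand. Of the 5, only BraA06g031870.3C and BraA09g054840.3C, a GLABRA2 expression modulator, had a mean of at least 5 FPKM in a tissue. The log2 fold change of BraA09g054840.3C was 0.44. The median of 1.88 thus came from a locus below 5 FPKM in both tissues. The count of 5 fell to 2 without leaf replicate 2 or petiole replicate 3, and to 3 without leaf replicate 3 or petiole replicate 2. Of 7 loci matched as like the pollen protein Ole e 1 (pollen-specific protein C13 and proline-rich proteins), 4 had no counts in any library. The single locus tested, BraA03g026680.3C, had 51.4 ± 2.74 FPKM in petiole and 18.6 ± 0.884 FPKM in leaf (log2 fold change 0.73, edgeR adjusted p = 4.13e-06).

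The lists that check the tissues went apart. Green leaf genes were higher in leaf for 25 and higher in petiole for 0 of 26 (median -3.72). Xylem and secondary wall genes were higher in petiole for 21 and higher in leaf for 1 of 26 (median 1.46), and phloem genes for 5 and 8 of 18 (median -0.37). No locus of the lists other than the antimicrobial and green leaf ones had a leaf mean FPKM above that of BraA01g035530.3C. How far the amount of blade or epidermis in each sample plays into the phylloplanin-like values was not tested. With limma on log2(FPKM + 1) 27 wax and cutin loci were called toward petiole and 14 toward leaf, and 30 and 17 without a filter on low values. For phloem it called 7 toward petiole and 4 toward leaf, with or without the filter. Both lists thus had more calls toward leaf by edgeR and more toward petiole by limma. For stomata it called 6 toward petiole and 5 toward leaf with the filter, and 7 and 8 without it. For lipid transfer proteins it called 21 and 2 with the filter, and 21 and 4 without it. The leaf counts of these lists without the filter are those of the edgeR test.

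**Figure D4:**
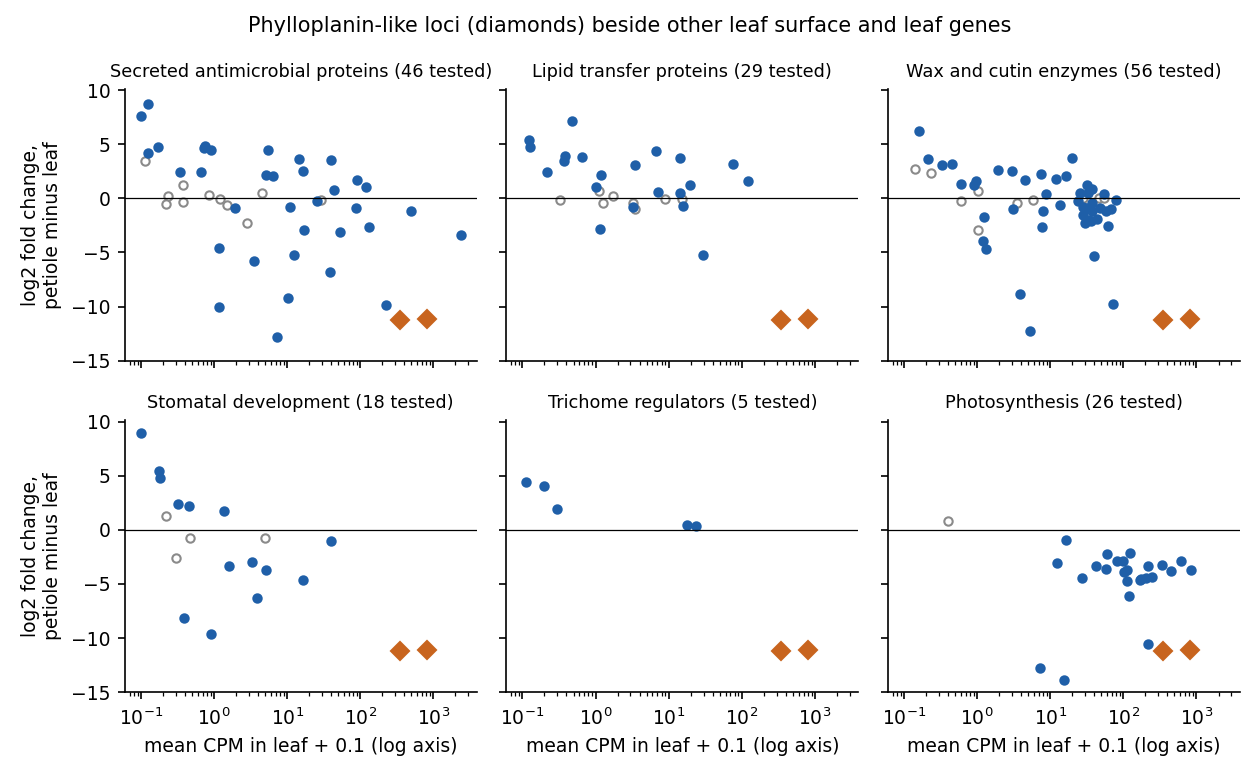
Log2 fold change, petiole minus leaf, against mean leaf CPM + 0.1 (log axis) for the tested loci of 6 lists, filled blue where the edgeR adjusted p was under 0.05 and open grey otherwise. The orange diamonds, repeated in each panel, are BraA01g035500.3C at -11.12 and BraA01g035530.3C at -11.22, at the lower right of each panel.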

How the data were processed

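Per the file headers, the authors deposited 1 table of loci with estimated counts (whole numbers, not normalised) and FPKM per library. Which aligner, counter and plant genome they used is not given in the sources used here. Bowtie 0.12.2 and mm8, a mouse build, stand in the submitters' processing notes with no role. Loci without a gene name held 6.37% ± 0.37 of counts in petiole and 5.32% ± 0.12 in leaf and were kept.

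Petiole was compared with leaf by edgeR 4.0.16 (R 4.3.3): filterByExpr, TMM factors, quasi-likelihood test with robust fitting, two-sided, Benjamini-Hochberg adjustment over all 31473 loci, threshold 0.05. Counts were already whole, so rounding changed nothing. The step was tested on simulated counts. Alternatives used DESeq2 1.42.0, limma 3.58.1 on log2(FPKM + 1) or log2(FPKM + 0.1) with a mean of at least 1 FPKM in a tissue, other filters, a replicate block and each library left out.

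Members and lists were chosen with earlier results of these data known. False matches in list descriptions were removed, Ole e 10 proteins after values were seen. Named loci are the members, overlapping and nearest loci, the 6 nearest profiles and up to 3 loci per list with the largest change past the threshold at a mean of at least 5 FPKM; other loci named were chosen after their values were seen. No sequence is printed, as no sequence file was used here.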

Additional observations from a re-analysis of the deposited data

How the results depend on the processing

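BraA01g035530.3C kept its direction and its call in all 13 alternatives, with log2 fold changes from -12.43 to -8.14 and, over libraries left out, from -12.43 to -10.60. BraA01g035500.3C kept its direction in all 13, which follows from its choice by these same libraries. Its log2 fold change lay between -11.36 and -10.99 over libraries left out. It moved by more than the spread between replicates with limma on log2(FPKM + 1), with or without a filter (-9.11), and on log2(FPKM + 0.1) (-10.22). In these settings 1 or 0.1 FPKM was added to petiole values of 0.561 to 0.902 FPKM. How much of the shift came from the added value and how much from the FPKM scale was not tested. Over all loci, the split of 9909 higher in petiole and 9802 higher in leaf became 17005 and 4411 with limma on log2(FPKM + 1), 16922 and 4364 on log2(FPKM + 0.1), and 18431 and 5084 without a filter, or between 78.4% and 79.5% of calls toward petiole against 50.3%. Of 244 list counts under the alternatives, 216 stayed within 1.5 times and 28 moved. The replicate numbers did not pair the libraries (deviations of same-numbered libraries correlated at 0.014, -0.010 and 6.88e-05). With the replicate block 18683 loci were called against 19711, and BraA01g035530.3C had -11.26 (edgeR adjusted p = 0.0154). In an alternative chosen after seeing the data, with false matches of the search text kept, the leaf hair list gave 30 calls toward petiole and 8 toward leaf of 49 tested, the antimicrobial list 40 and 30 of 91, the stomatal list 10 and 8 of 23, the lipid transfer list 18 and 4 of 34 and the Ole e 1 list 2 and 2 of 5. Petiole levels of the phylloplanin-like loci rest on 17 fragments or fewer per library.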

Other observations

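Among 3187 loci with a single gene name and the Gene Ontology term extracellular region, BraA01g035500.3C ranked 4 and BraA01g035530.3C ranked 8 by mean leaf FPKM. Most of the others at that level were also abundant in petiole. The top locus, the defensin-like protein 4 locus MSTRG.21334, had 446.9 ± 39.3 FPKM in petiole and 2871 ± 121.7 FPKM in leaf (SD, n = 3 each). Peroxidase 42, at MSTRG.952, had 6201 ± 114.4 FPKM in petiole and 2050 ± 65.9 FPKM in leaf. The exception was BraA03g037790.3C, an uncharacterised protein, at 1.74 ± 0.0661 FPKM in petiole and 1998 ± 110.7 FPKM in leaf. It lies on chromosome A03 and carries the same 4 Gene Ontology terms as the phylloplanin-like pair. These terms as a set were shared by 56 loci in all. In leaf, BraA03g037790.3C and the phylloplanin-like loci were the top 3 of that set by mean FPKM. Of the 54 loci of the set outside the pair, 12 had no counts in any library, 10 had a mean of at least 10 FPKM in petiole and 6 in leaf. The set was picked after the values were seen, and no test was run on it.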
